A study of Mus musculus with 9 samples.

Results

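A group of 9 clock-controlled genes of the mouse liver were followed here: the transcription factors *Dbp*, *Tef*, *Hlf* and *Nfil3*, the transcriptional repressors *Ciart*, *Bhlhe40* and *Bhlhe41*, and the effectors *Usp2* and *Rgs16*. They were taken as every probe set whose only gene symbol in the array annotation was one of these 9 names, which gave 10 probe sets of the 28815 on the array (*Ciart* has 2). The 9 genes were selected on the difference between calorie-restricted and freely fed wild-type livers in these same arrays. That difference, and the WTCR against *Dgat1*-/-AL difference that shares its arrays, is therefore given below as a description, and the calls counted in it restate that choice. Of the 10 probe sets, 7 were higher (4.25% of all probe sets) and 1 was lower (3.81%) in calorie-restricted livers, by up to 10.3-fold (on a *Ciart* probe set with a low signal in the other groups). In livers of *Dgat1*-deficient mice 0 of 10 were called, where 0.465% of all probe sets were called higher and 0.76% lower, so a count of 0 is near the background and is no result about these genes.

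RNA of whole liver was measured in 9 female mice of 15 to 16 months on a C57BL/6J background, with 1 mouse per array and 3 mice per group. The WTAL group was wild-type and fed standard chow *ad libitum*. The WTCR group was wild-type and received a calorie-restricted diet, with intake lowered in 2 successive steps. The *Dgat1*-/-AL group lacked *Dgat1*, which encodes an enzyme of triglyceride synthesis, in a knockout not restricted to liver, and was fed *ad libitum*. The hour at which livers were collected, and how long before it each mouse had eaten, is not given in the sources used here.

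The *Dgat1* log2 signal was 7.86, 5.67 and 8.04 in WTAL replicates 1, 2 and 3. It was 8.89, 8.76 and 8.56 in the WTCR arrays and 6.13, 5.83 and 5.39 in the *Dgat1*-/-AL arrays. In this probe set alone, the array labelled WTAL replicate 2 thus lay among the *Dgat1*-/-AL arrays and went against its label. Which liver this array holds was not tested, so differences from WTAL are given with and without it. On the first principal component (35.5% of the variance) the WTCR arrays stood apart from the other 6, and on the second (26.4%) *Dgat1*-/-AL replicate 1 stood apart from all others. The mean signal of 8 hepatocyte markers was 12.82 to 12.94 in WTAL, 12.98 to 13.21 in WTCR and 12.88 to 13.20 in *Dgat1*-/-AL. Every WTCR array lay above every WTAL array in this mean, which includes *Pck1*, the marker with the largest WTCR difference (0.74, not called). Only *Hnf4a* (0.40) was called higher in WTCR. A call means over 1.3-fold with limma p, before adjustment, under 0.05. Over all probe sets 4.25% were called higher and 3.81% lower in WTCR, and 0.465% and 0.76% in *Dgat1*-/-AL. Of 12 macrophage markers 4 were called lower in WTCR and 5 lower in *Dgat1*-/-AL, with mean levels of 8.23 to 8.85 in WTAL, 7.84 to 8.48 in WTCR and 7.97 to 8.41 in *Dgat1*-/-AL. Both counts include *Ptprc* (-1.28 in WTCR and -0.46 in *Dgat1*-/-AL), a gene of leukocytes in general and not of macrophages alone. Of 7 B and T cell markers, the 3 B cell genes *Cd79a* (-0.44), *Cd79b* (-0.49) and *Ms4a1* (-0.95) were called lower in WTCR. The T cell genes *Cd3e* (-0.08), *Cd3d* (-0.07), *Cd8a* (-0.09) and *Cd4* (-0.02) were not called. Of these 7 markers 3 had a mean signal under 4.98, the low-signal limit used below: the called B cell genes *Cd79a* and *Ms4a1*, and *Cd3d*. In stellate cell markers 2 of 6 and in endothelial markers 1 of 7 were called lower in WTCR, and of 5 adipocyte markers *Fabp4* was called higher (0.42). In *Dgat1*-/-AL the endothelial markers *Stab2* (0.65) and *Cdh5* (0.39) were called higher and *Lyve1* (-0.64) and *Clec4g* (-0.56) lower. No macrophage or endothelial marker had an adjusted p under 0.05 in *Dgat1*-/-AL (lowest 0.97 and 0.96, limma). In WTCR 2 macrophage and 1 endothelial marker did. Without the array labelled WTAL replicate 2, 3 macrophage markers were called lower in each group, *Cps1* (0.39) joined *Hnf4a*, and *Fabp4* was no longer called. No cholangiocyte or pancreatic acinar marker was called in either group. Fewer cells of a type and less RNA per cell cannot be told apart in whole liver, and the part of these other cells in the results below was not tested.

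In the circadian clock, CLOCK and BMAL1 (gene *Arntl*) bind E-boxes and switch on the *Per* and *Cry* genes, whose proteins then repress CLOCK and BMAL1. The clock reaches liver metabolism through output regulators. DBP, TEF and HLF, the PAR bZIP factors, activate genes through D-box elements, and NFIL3 (also called E4BP4) represses through the same elements. CIART (also called CHRONO) and the basic helix-loop-helix proteins BHLHE40 and BHLHE41 (DEC1 and DEC2) repress CLOCK and BMAL1. USP2 is a deubiquitinase and RGS16 shuts off G protein signaling, and the mRNAs of both cycle strongly in liver.

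Since the E-box ties several of these genes to CLOCK and BMAL1, their promoters were read for it. Promoter windows from RefSeq (mouse assembly GRCm38.p6), each of 250 bases before and 50 bases after a transcript start, were found for 8 of the 9 members, in 9 windows because *Tef* has 2. The 3 members with a canonical E-box, CACGTG, which reads the same on both strands, are shown 5′ to 3′ on the strand of the gene, with each CACGTG in capitals:
Ciart, chr3:95882179-95882478, minus strand: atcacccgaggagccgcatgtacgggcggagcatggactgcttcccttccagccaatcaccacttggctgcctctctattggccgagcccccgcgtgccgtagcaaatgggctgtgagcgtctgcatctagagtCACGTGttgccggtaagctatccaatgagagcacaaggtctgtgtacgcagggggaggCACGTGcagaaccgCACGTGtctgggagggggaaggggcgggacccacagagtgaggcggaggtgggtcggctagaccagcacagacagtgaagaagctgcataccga
Tef, chr15:81802423-81802722, plus strand: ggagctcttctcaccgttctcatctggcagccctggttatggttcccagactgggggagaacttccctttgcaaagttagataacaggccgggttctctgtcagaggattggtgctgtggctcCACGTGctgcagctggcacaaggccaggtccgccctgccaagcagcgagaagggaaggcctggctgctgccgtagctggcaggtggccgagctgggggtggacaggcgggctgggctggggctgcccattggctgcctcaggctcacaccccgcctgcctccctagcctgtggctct
Tef, chr15:81811164-81811463, plus strand: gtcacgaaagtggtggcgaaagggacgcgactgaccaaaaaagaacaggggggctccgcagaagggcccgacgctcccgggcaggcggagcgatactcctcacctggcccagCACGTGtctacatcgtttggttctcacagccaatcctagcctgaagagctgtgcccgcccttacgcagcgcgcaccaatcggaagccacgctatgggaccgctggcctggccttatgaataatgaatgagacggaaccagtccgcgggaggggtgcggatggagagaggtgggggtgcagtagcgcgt
Bhlhe41, chr6:145865371-145865670, minus strand: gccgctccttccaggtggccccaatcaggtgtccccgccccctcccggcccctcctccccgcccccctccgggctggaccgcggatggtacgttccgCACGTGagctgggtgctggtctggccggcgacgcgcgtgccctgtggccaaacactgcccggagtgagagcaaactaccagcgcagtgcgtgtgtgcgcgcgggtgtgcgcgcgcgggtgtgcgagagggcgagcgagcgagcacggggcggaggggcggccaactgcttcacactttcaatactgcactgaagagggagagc

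The *Ciart* window held 3 E-boxes, which began 116, 58 and 44 bases before the transcript start. Each *Tef* window held 1, at 127 and 138 bases before its start, and the *Bhlhe41* window held 1 at 153 bases before. A CACGTG was found in 7.15% of the 32851 promoter windows of the table, and 3 or more were found in 0.0883% of them (29 windows). The windows of *Dbp*, *Hlf*, *Nfil3*, *Usp2* and *Rgs16* held none, and sequence outside the windows was not searched for any member. Neither the related CACGTT nor the D-box forms TTATGTAA and TTACGTAA, searched on both strands, occurred in any member window, and these were found in 4.68%, 0.938% and 0.119% of all windows. A match is a stretch of letters and not a measured binding site.

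The 3 PAR bZIP activators were all higher in WTCR livers. *Dbp* had log2 signals of 7.28, 7.99 and 6.90 in WTAL, 10.20, 9.30 and 9.39 in WTCR, and 7.24, 6.84 and 7.61 in *Dgat1*-/-AL. Every WTCR liver lay above every other liver, and the other groups overlapped. The WTCR minus WTAL difference was 2.24 ± 0.33 (log2, SE from limma, n = 3 mice per group), a 4.72-fold higher mRNA level. *Tef* had signals of 7.54, 7.72 and 7.54 in WTAL, 9.20, 8.73 and 8.68 in WTCR, and 7.55, 7.29 and 7.70 in *Dgat1*-/-AL, and its difference of 1.27 ± 0.15 corresponds to 2.40-fold. The WTCR livers again lay above all others. *Hlf* had signals of 7.01, 7.22 and 7.09 in WTAL, 7.92, 7.78 and 7.74 in WTCR, and 7.50, 6.99 and 7.29 in *Dgat1*-/-AL, and its difference was 0.71 ± 0.13 (1.63-fold). The lowest WTCR signal of *Hlf* exceeded the highest *Dgat1*-/-AL signal by 0.25. The order of the differences, *Dbp* over *Tef* over *Hlf*, was the same in each WTCR mouse: relative to the WTAL mean, replicate 1 was higher by 2.81, 1.59 and 0.81, replicate 2 by 1.90, 1.13 and 0.68, and replicate 3 by 2.0, 1.08 and 0.64. For all 3 genes replicate 1 was the highest of the WTCR livers.

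*Nfil3*, which encodes the repressor that occupies the D-box in place of the PAR bZIP factors, was the only member lower in WTCR. Its log2 signals were 7.99, 7.22 and 8.19 in WTAL, 5.97, 6.08 and 5.34 in WTCR, and 8.47, 8.16 and 7.71 in *Dgat1*-/-AL. All WTCR livers lay below all others. The WTCR minus WTAL difference was -2.0 ± 0.30, or 4.01-fold lower, close in size to the *Dbp* difference of 2.24 with the opposite sign. The lowest *Nfil3* and the highest *Dbp* signals of the WTCR group came from different mice, replicate 3 for *Nfil3* and replicate 1 for *Dbp*. In WTAL the array labelled replicate 2 had both the highest *Dbp* and the lowest *Nfil3* signal.

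Among the repressors of CLOCK and BMAL1, *Ciart* had differences above 2 log2 units on both of its probe sets. Its first probe set read 3.82, 4.47 and 3.97 in WTAL, 7.48, 7.64 and 7.24 in WTCR, and 4.45, 3.24 and 4.57 in *Dgat1*-/-AL. Its second read 4.52, 5.24 and 4.93 in WTAL, 7.44, 7.68 and 7.13 in WTCR, and 4.90, 4.88 and 4.79 in *Dgat1*-/-AL. The WTCR livers stood above all others on both, by at least 2.67 log2 units on the first and 1.89 on the second. The WTCR minus WTAL difference was 3.37 ± 0.33 (10.3-fold) on the first and 2.52 ± 0.19 (5.75-fold) on the second, so the probe sets gave different sizes in the same direction. The WTAL means of 4.09 and 4.89 and the *Dgat1*-/-AL means of 4.09 and 4.86 lay under 4.98, the low-signal limit used as an alternative filter, so neither fold is an exact measure of the mRNA ratio. The probe sets also differed in spread, since the *Dgat1*-/-AL livers ranged over 1.33 log2 units on the first, where replicate 2 was low, and over 0.11 on the second.

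*Bhlhe40* varied more between mice of the WTAL group, over 1.34 log2 units, than it differed between the diets. Its signals were 6.52, 7.86 and 7.47 in WTAL, 8.56, 7.66 and 7.87 in WTCR, and 6.98, 6.63 and 7.19 in *Dgat1*-/-AL. WTCR and WTAL overlapped, and the difference of 0.74 ± 0.35 was not called. Without the array labelled WTAL replicate 2 it was 1.03, and without WTCR replicate 2 it also passed the call rule, while the lowest value on leaving out an array was 0.36. *Bhlhe41*, its close paralog, had signals of 3.53, 3.82 and 3.69 in WTAL, 4.03, 3.87 and 3.91 in WTCR, and 3.74, 3.59 and 3.85 in *Dgat1*-/-AL. Its 9-array mean of 3.78 was low for this array, with only 15.2% of probe sets dimmer. The WTCR livers were above the others by as little as 0.02, and the difference of 0.26 ± 0.10 (1.19-fold) did not reach the fold needed for a call.

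Both effectors were among the largest differences. *Usp2* had signals of 5.84, 6.01 and 5.86 in WTAL, 8.81, 8.34 and 8.66 in WTCR, and 5.66, 5.55 and 5.69 in *Dgat1*-/-AL. The groups were tight and WTCR stood 2.32 above the highest WTAL liver. The WTCR minus WTAL difference was 2.70 ± 0.12, or 6.50-fold. *Rgs16* had signals of 7.24, 7.86 and 7.94 in WTAL, 11.05, 10.12 and 10.27 in WTCR, and 8.93, 7.53 and 8.87 in *Dgat1*-/-AL. Its difference of 2.80 ± 0.40 was 6.96-fold. The WTCR livers lay above all others for both genes, but *Dgat1*-/-AL replicates 1 and 3 also lay above all WTAL livers for *Rgs16*.

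**Figure D1:**
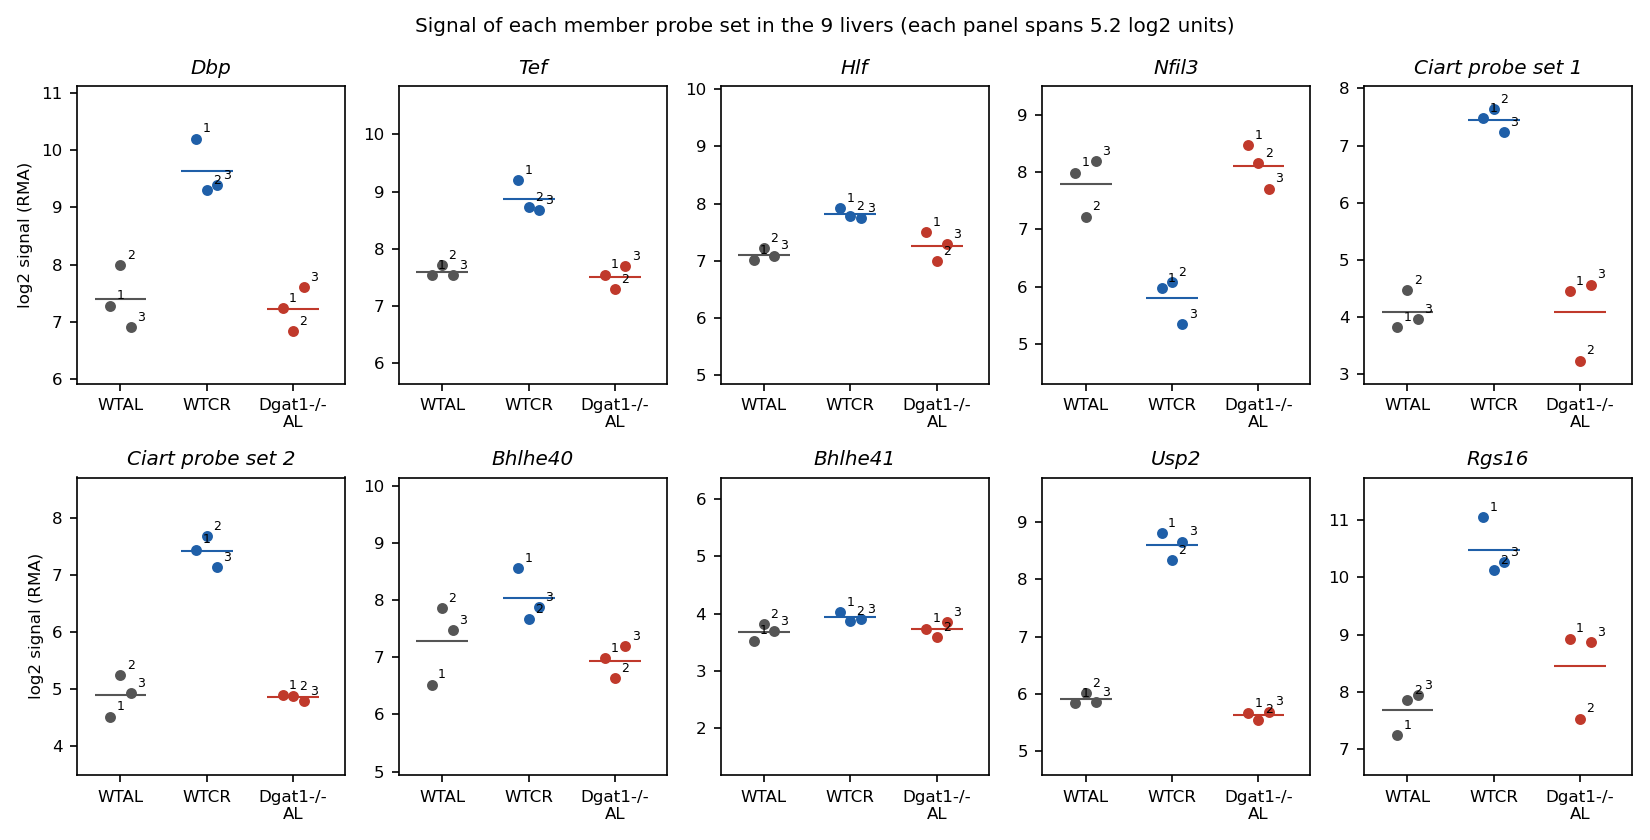
Log2 signal after RMA (y axis) of the 10 member probe sets in each liver, by group (x axis). Digits give the replicate and lines the group means, and every panel spans the same number of log2 units. The WTCR points stand apart from all others in *Dbp*, *Tef*, *Nfil3*, *Ciart*, *Usp2* and *Rgs16* and overlap WTAL in *Bhlhe40*.

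A call required more than a 1.3-fold difference together with limma p, before adjustment, under 0.05. By this rule 7 member probe sets were higher and 1 lower in WTCR than in WTAL, and 2 (*Bhlhe40* and *Bhlhe41*) were not called. Over all probe sets 4.25% were called higher and 3.81% lower. WTCR lay above the other 6 arrays without overlap in 8 member probe sets and below them in 1, against 6.11% and 4.56% of all probe sets. Because the members were chosen on this contrast, nothing is read from these counts. The median WTCR minus WTAL difference of the members was 1.75, against 0.002 for all probe sets. Without the array labelled WTAL replicate 2, the differences were 2.54 for *Dbp*, 1.33 for *Tef*, 0.77 for *Hlf* and -2.29 for *Nfil3*. They were 3.56 and 2.70 for *Ciart*, 0.33 for *Bhlhe41*, 2.75 for *Usp2* and 2.89 for *Rgs16*. Each was farther from 0 than with this array, which follows from its place on the WTCR side of the WTAL mean for every member.

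The comparison of *Dgat1*-/-AL with WTAL describes how the same genes differed under *Dgat1* deficiency without food restriction. It shares the WTAL arrays with the difference on which the members were chosen, so it is not independent of that choice. Its adjusted p and intervals carry that limit. No member was called, against 0.465% of all probe sets called higher and 0.76% called lower. The differences ran from -0.35 to 0.76 with a median of -0.02, the median of all probe sets was -0.002, and limma's adjusted p was 0.97 to 1.0. Across the array no probe set had an adjusted p under 0.05 in this comparison. An unadjusted p under 0.05 was found for 1316 of 28815. That is a share below 0.05, the share that would arise if no probe set differed. The intervals give the sizes of difference that these arrays allow. Each interval covers 95%. For *Tef* it was -0.44 to 0.26, for *Hlf* -0.14 to 0.44, and for *Ciart* -0.75 to 0.76 and -0.46 to 0.39. The interval for *Dbp* was -0.92 to 0.60 around -0.16 ± 0.33, and that for *Nfil3* was -0.37 to 1.0 around 0.31 ± 0.30. *Bhlhe41* gave 0.05 ± 0.10. *Bhlhe40* gave -0.35 ± 0.35 with an interval of -1.14 to 0.44, and without WTAL replicate 1, its lowest WTAL array, it was -0.73 and called.

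The effectors gave the other departures. *Usp2* was lower in every *Dgat1*-/-AL liver than in any WTAL liver, by -0.27 ± 0.12 (1.21-fold, adjusted p = 0.97 from limma). This was the only member whose groups did not overlap, and the share of all probe sets with all *Dgat1*-/-AL livers below all WTAL livers was 3.86% and with all above 3.16%. *Rgs16* was higher by 0.76 ± 0.40 with an interval of -0.15 to 1.68 (adjusted p = 0.97 from limma). Relative to the WTAL mean, *Dgat1*-/-AL replicates 1 and 3 were 1.25 and 1.19 higher and replicate 2 was -0.15, and without replicate 2 the difference was 1.22 and called. It was 0.52 without *Dgat1*-/-AL replicate 1, which stood apart on the second component, 0.55 without *Dgat1*-/-AL replicate 3 and 0.54 without WTAL replicate 1, and was not called in these. Without the array labelled WTAL replicate 2, *Dgat1*-/-AL minus WTAL was 0.14 for *Dbp*, -0.03 for *Tef*, 0.21 for *Hlf*, 0.03 for *Nfil3*, 0.19 and 0.14 for *Ciart*, -0.06 for *Bhlhe40*, 0.12 for *Bhlhe41*, -0.21 for *Usp2* and 0.86 for *Rgs16*. None of these was called, and *Dbp* and the second *Ciart* probe set changed sign. The intervals were then -0.60 to 0.88 for *Dbp*, -0.44 to 0.38 for *Tef*, -0.13 to 0.54 for *Hlf*, -0.61 to 0.66 for *Nfil3*, -0.66 to 1.05 and -0.27 to 0.55 for *Ciart*, -0.87 to 0.75 for *Bhlhe40*, -0.53 to 0.10 for *Usp2* and -0.26 to 1.97 for *Rgs16*.

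**Figure D2:**
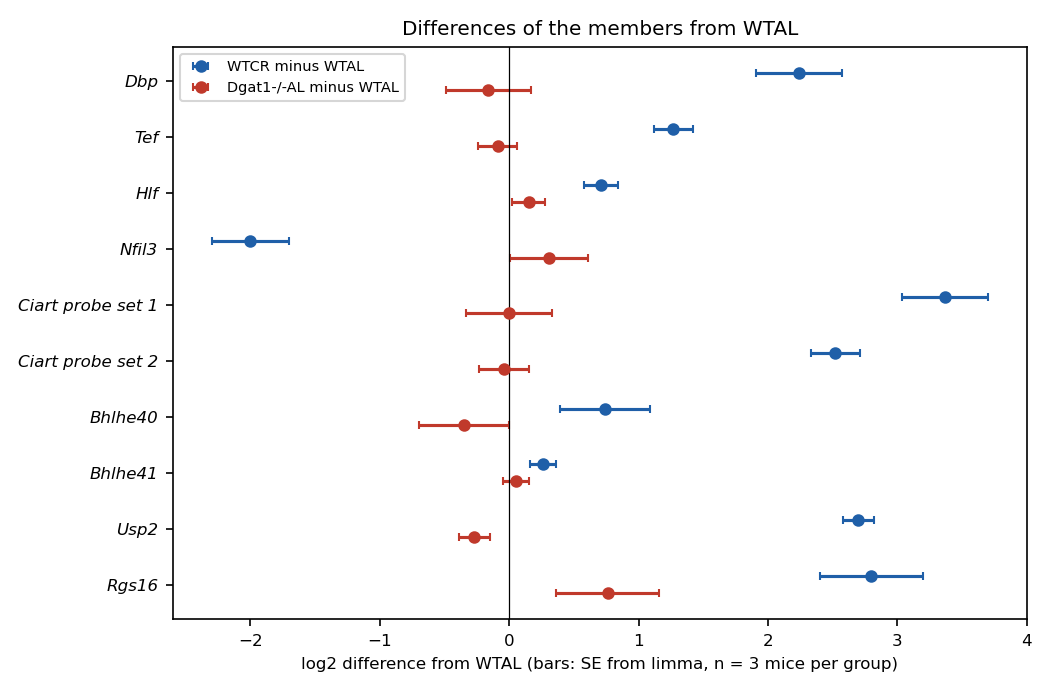
Difference from WTAL (x axis, log2) of each member probe set (y axis), for WTCR in blue and *Dgat1*-/-AL in red, with bars of 1 SE from limma (n = 3 mice per group). The WTCR points span -2.0 to 3.37, and the *Dgat1*-/-AL points span -0.35 to 0.76, with *Rgs16* the highest.

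WTCR and *Dgat1*-/-AL were also set directly against each other. These differences share the WTCR arrays with those above and are likewise a description. WTCR was higher by 2.40 for *Dbp*, 1.36 for *Tef*, 0.56 for *Hlf*, 3.37 and 2.56 for *Ciart*, 2.97 for *Usp2* and 2.03 for *Rgs16*, and the *Nfil3* difference was -2.32. *Bhlhe40* was 1.09 higher in WTCR than in *Dgat1*-/-AL, the groups were 0.47 apart, and without WTCR replicate 1 the difference was 0.83. By the call rule 8 member probe sets were higher and 1 was lower, and *Bhlhe41* was not called, beside 4.66% higher and 3.93% lower of all probe sets, and nothing is read from these counts. *Rgs16* was the member with the largest gap between its WTCR differences, 2.80 against WTAL and 2.03 against *Dgat1*-/-AL, since its *Dgat1*-/-AL mean was the intermediate one.

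Within a group, the member genes of one mouse tended to lie on the same side of their group means. When each deviation was signed so that positive meant toward the WTCR group, the array labelled WTAL replicate 2 was the WTAL array nearest to WTCR in 9 of 10 probe sets (median deviation 0.26), and WTAL replicate 1 was farthest in 8 (-0.17). For *Dbp*, *Nfil3* and *Bhlhe40* this array lay 0.60, 0.58 and 0.58 toward WTCR. Among WTCR livers, replicate 1 was farthest along in 7 probe sets (0.16), though not for *Nfil3* or *Ciart*. Among *Dgat1*-/-AL livers, replicate 3 was nearest to WTCR in 7 (0.22) and replicate 2 farthest from it in 8 (-0.25). In the 7 core clock genes called in WTCR, listed below, the array labelled WTAL replicate 2 was again nearest in 5 (0.12) and *Dgat1*-/-AL replicate 2 farthest in 5 (-0.14). The members come from the same livers and the same arrays, so these counts are a description of 9 arrays and carry no test.

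**Figure D3:**
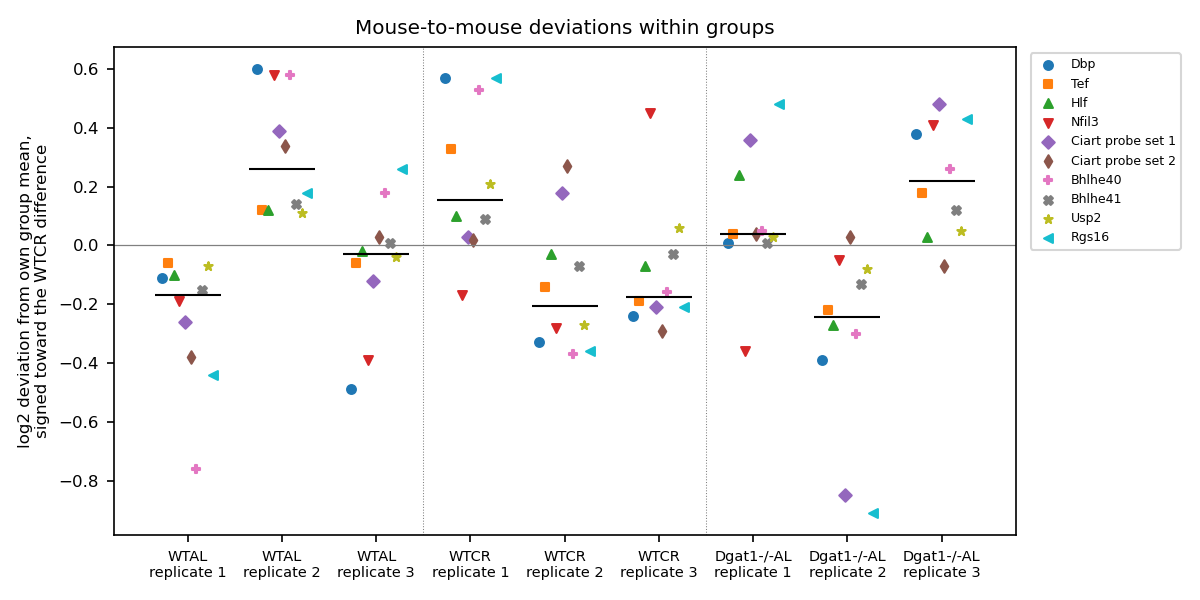
Deviation of each liver from its own group mean (y axis, log2), signed so that positive means toward the WTCR side, for the 10 member probe sets in each array (x axis), the median drawn as a bar. That labelled WTAL replicate 2 lies above 0 for every member, with a median of 0.26, and *Dgat1*-/-AL replicate 2 has a median of -0.25.

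Other genes of the clock and its outputs were taken from lists of the pathway, which were drawn up with earlier results of these data known. The calls and adjusted p of these genes in WTCR are therefore a description and no independent test. Over all probe sets 4.25% were called higher and 3.81% lower in WTCR, and 0.465% and 0.76% in *Dgat1*-/-AL. These shares stand beside the counts of each list and family below. Of 18 core clock genes 15 had a probe set with that single symbol, and 7 were called higher and none lower in WTCR, with a median difference of 0.16. *Per1*, a repressor of CLOCK and BMAL1, had log2 signals of 5.61, 5.90 and 6.08 in WTAL, 8.17, 8.13 and 7.73 in WTCR, and 5.90, 5.67 and 5.83 in *Dgat1*-/-AL. It rose by 2.15 ± 0.15 (adjusted p = 0.0012, limma). *Per3* rose by 1.28 ± 0.24 (adjusted p = 0.028, limma), *Cry1* by 0.80 ± 0.13 (adjusted p = 0.021) and *Per2* by 0.65 ± 0.14 (adjusted p = 0.045). *Cry2* (0.91), the nuclear receptor *Nr1d2* (0.66) and the kinase *Csnk1d* (0.39) were called with adjusted p of 0.054 to 0.15 from limma. The activators gave values of the other sign that were not called, -0.90 ± 0.47 for *Arntl* and -0.46 ± 0.21 for *Clock*, and the repressor *Nr1d1* gave -0.22 ± 0.46. No core clock gene was called in *Dgat1*-/-AL, where differences ran from -0.29 to 0.41. With the array labelled WTAL replicate 2 left out, the same 7 genes were called higher and *Arntl* was called lower (-1.23), none was called in *Dgat1*-/-AL, and limma's adjusted p was 0.0093 for *Per1* (2.17), 0.038 for *Cry1* (0.88), 0.051 for *Per3* (1.41) and 0.081 for *Per2* (0.71).

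Genes known as targets of the PAR bZIP factors or of NFIL3 came next. Of 8 listed, 5 were measured, 2 were called higher and none lower in WTCR, and their median difference was 0.23. *Alas1*, the rate-limiting enzyme of heme synthesis, had signals of 8.96, 10.22 and 9.66 in WTAL and 12.04, 10.57 and 11.27 in WTCR, a difference of 1.68 ± 0.42 (adjusted p = 0.076, limma). The drug-metabolizing *Cyp2b10* was called at 1.02 ± 0.32 (adjusted p = 0.15, limma). Its groups overlapped, since WTCR replicate 1 (10.64) lay under WTAL replicate 3 (10.70). *Cyp7a1*, the rate-limiting enzyme of bile acid synthesis, gave 0.21, the xenobiotic receptor *Nr1i3* gave 0.23 and the hepatokine *Fgf21* gave 0.08, none of them called. In *Dgat1*-/-AL the gene called was *Cyp7a1*, with signals of 10.63, 11.73 and 11.38 against 11.79, 11.93 and 12.21 in WTAL. That difference of -0.73 ± 0.25 passed the call rule with an adjusted p of 0.97 from limma, and all *Dgat1*-/-AL livers lay below all WTAL livers. Leaving out the array labelled WTAL replicate 2 kept these calls, with 1.99 for *Alas1*, 1.04 for *Cyp2b10* and, in *Dgat1*-/-AL, -0.75 for *Cyp7a1*.

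Of 8 other rhythmic liver transcripts 7 were measured, and 4 were called higher and 1 lower in WTCR (median 0.59). *Wee1*, a kinase that holds back entry into mitosis, had signals of 5.52, 6.46 and 6.35 in WTAL and 8.71, 7.46 and 7.93 in WTCR and rose by 1.93 ± 0.33 (adjusted p = 0.023, limma). *Nampt*, the rate-limiting enzyme of NAD salvage, rose by 0.92 ± 0.15 (adjusted p = 0.021, limma). *Coq10b* (1.45 ± 0.33) and *Tspan4* (0.59) were called higher and the vasopressin receptor gene *Avpr1a* lower (-0.68 ± 0.25), with adjusted p of 0.056 to 0.22 from limma. For *Avpr1a* WTCR and WTAL overlapped. In *Dgat1*-/-AL the fatty acid elongase gene *Elovl3* was called higher (0.52 ± 0.15, adjusted p = 0.97, limma). Its groups met at 5.33, the signal of both *Dgat1*-/-AL replicate 3 and WTAL replicate 1. In the C/EBP family, bZIP factors related to the PAR bZIP group, 2 of 6 were called higher in WTCR, *Cebpb* by 0.50 and *Cebpd* by 0.54, and none in *Dgat1*-/-AL. These calls held without the array labelled WTAL replicate 2, with 2.10 for *Wee1* (adjusted p = 0.046, limma), 0.87 for *Nampt* (adjusted p = 0.066) and 0.54 for *Elovl3*, and *Ddit3* of the C/EBP list was called lower in *Dgat1*-/-AL (-0.40).

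**Figure D4:**
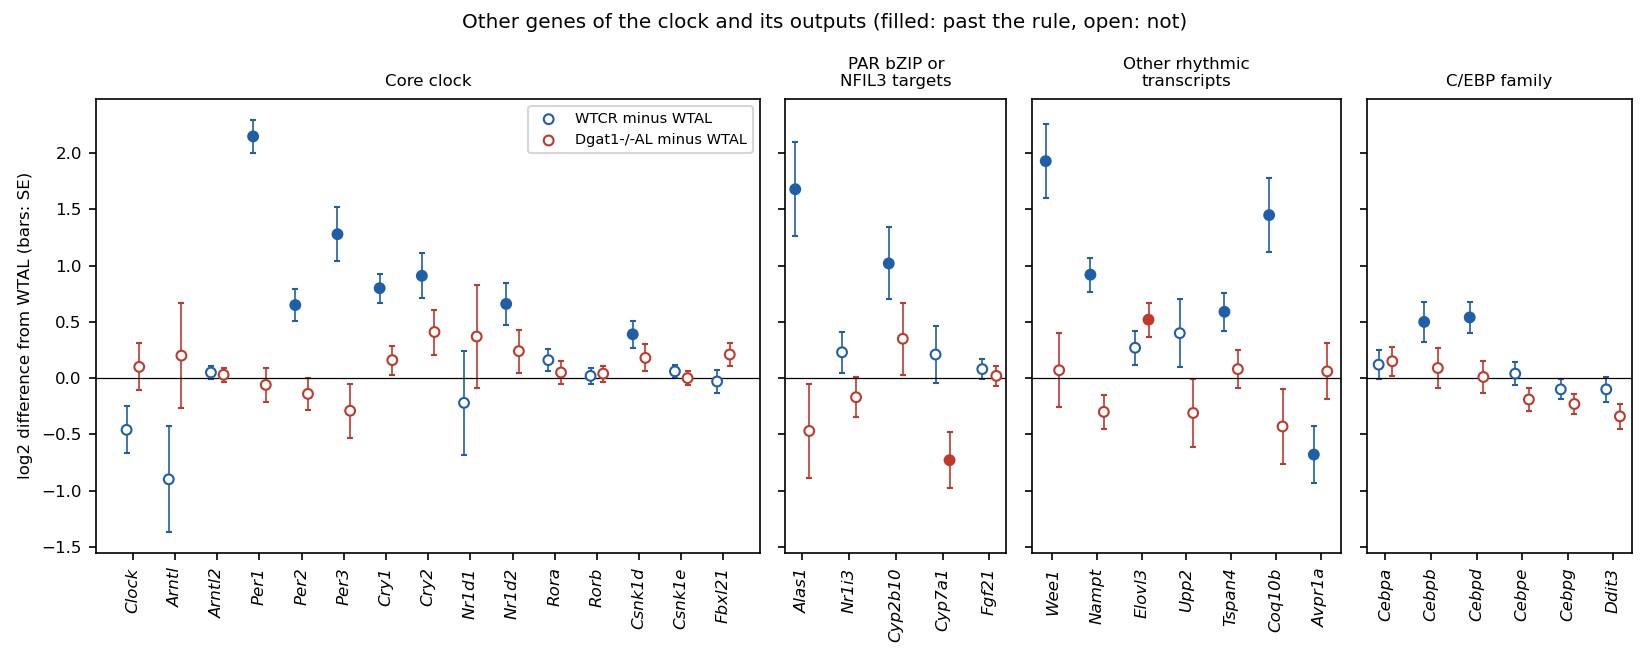
Difference from WTAL (y axis, log2, bars of 1 SE from limma, n = 3 mice per group) of the measured genes of 4 lists (x axis), for WTCR in blue and *Dgat1*-/-AL in red, with filled points past the call rule. *Per1* (2.15) and *Wee1* (1.93) have the largest WTCR differences, and in *Dgat1*-/-AL *Cyp7a1* (-0.73) and *Elovl3* (0.52) are the 2 filled points.

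The gene families of the effectors offered a comparison by name. Among 19 other *Rgs* genes, WTCR minus WTAL ran from -0.56 to 0.38, with 1 called higher (*Rgs4*, 0.38) and 1 called lower (*Rgs2*, -0.56), against 2.80 for *Rgs16*. Among 45 other *Usp* genes it ran from -0.77 (*Usp18*, called) to 0.47 (*Usp10*, not called), with 2 called higher and 2 lower, against 2.70 for *Usp2*. In *Dgat1*-/-AL no gene of either family was called. When the array labelled WTAL replicate 2 was left out, WTCR minus WTAL ran from -0.52 to 0.43 in the *Rgs* family and from -0.67 to 0.59 in the *Usp* family, where *Usp10* was then called. *Rgs16* and *Usp2* lay outside the range of their families, but both were selected on this same difference, so nothing is read from the contrast. Some genes of both families had means under the low-signal limit. Examples are *Rgs13* (3.06 in WTAL and 2.95 in WTCR) and *Usp51* (3.33 and 3.36). Whether low signal narrowed the family ranges was not tested.

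The genes whose log2 profiles over the 9 arrays lay closest to a member were found by the root-mean-square difference after centring each on its own mean. This was run for the 8 member probe sets that ranged over at least 1 log2 unit. *Per1* was closest to *Dbp* (0.40) and to the second *Ciart* probe set (0.23), and *Alas1* was the next closest to *Dbp* (0.40). *Lpin1*, a phosphatidate phosphatase, was closest to *Usp2* (0.34), to *Rgs16* (0.51) and to the first *Ciart* probe set (0.65). *Tef* was followed most closely by *Aldoc* (0.17) and *Gpt* (0.18), which encode an aldolase and an aminotransferase. *Nfil3* was followed by *G6pc* (0.37), the glucose-6-phosphatase gene, and the complement gene *C9* (0.38), and *Bhlhe40* by the sterol transporter gene *Abcg8* (0.28) and by *Slc25a32* (0.31). All profiles share the same 9 arrays and the split between WTCR and the rest, so the likeness is a description without a p.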

How the data were processed

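Liver RNA of 9 mice was hybridised to Affymetrix Mouse Gene 1.0 ST arrays. The authors deposited log2 values from RMA (background correction, quantile normalization between arrays and a summary over the probes of a probe set). The RMA version is not given in the sources used here. RMA sets all arrays to one distribution, so a difference is relative to the other transcripts. The number of arrays limits the precision. Gene symbols came from the platform annotation: 21780 of 28815 probe sets had 1 symbol, 1605 several and 5430 none. In R 4.3.3, limma 3.58.1 (lmFit, eBayes) fitted 1 mean per group over all 9 arrays to each probe set, with no filter. A call needed more than a 1.3-fold difference and p, before adjustment, under 0.05, and Benjamini-Hochberg adjustment ran over all 28815 probe sets. A gene with several probe sets outside the members was represented by the brightest, and only *Clec4g* among the listed markers had another that gave no call. The scripts were tested on simulated data.

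All member probe sets were reported. Other genes were named from lists of clock and output genes, the *Rgs* and *Usp* families (the 2 with the largest WTCR difference) and the 2 closest profiles per member. The members and lists were chosen with earlier results of these data known. Replicate numbers were compared through the correlation of deviations from group means: for WTCR against *Dgat1*-/-AL, arrays of the same number had r of 0.477, 0.252 and 0.211, each above 0.1, and 2 of the 6 other pairs also exceeded it (0.176 and 0.184). No label says what a number shares. The printed differences do not use the number, and the replicate block was run as an alternative. Promoter windows came from RefSeq (GRCm38.p6).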

Additional observations from a re-analysis of the deposited data

How the results depend on the processing

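All WTCR differences of the members, from WTAL and from *Dgat1*-/-AL (159 values each), kept their direction under median centring, repeated quantile normalization, the low-signal filter (19210 probe sets above 4.98, which drops *Bhlhe41*), trended robust eBayes, array weights, only the arrays compared, the replicate block and leaving out each array, where calls changed for *Bhlhe40* alone, as given above. Of 159 *Dgat1*-/-AL minus WTAL values, 146 kept direction and call, 11 changed sign and 2 became calls. Leaving out arrays moved these differences between -0.41 and 0.14 (*Dbp*), -0.18 and 0.02 (*Tef*), -0.24 and 0.42 (first *Ciart* probe set, -0.00086 with array weights), -0.22 and 0.14 (second) and -0.03 and 0.12 (*Bhlhe41*), and member calls between 0 and 1. The cause was not tested. Of 33 listed genes, 16 were called in WTCR (4.25% higher and 3.81% lower over all probe sets) and 2 in *Dgat1*-/-AL (0.465% and 0.76%). An adjusted p under 0.05 left 6 and 0, array weights gave 4 in *Dgat1*-/-AL, and leaving out arrays gave 1 to 4. With the replicate block 8, 0 and 9 members were called in WTCR against WTAL, *Dgat1*-/-AL against WTAL and WTCR against *Dgat1*-/-AL, as without it, and 17 and 2 listed genes. Against WTAL, arrays of the same number had r of -0.233, 0.045 and -0.075 for WTCR and -0.325, -0.086 and -0.229 for *Dgat1*-/-AL. What arrays of the same number share is not known. With 3 arrays per group, a *Rgs16* difference of up to 1.68 in *Dgat1*-/-AL lies within the interval.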
